A study of Mus musculus with 8 samples.

Results

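Gene expression was compared between XY and XX mouse gonads that lack Kdm6b at embryonic day 11.5, and the difference was set beside that of wild type gonads. The comparison uses 2 XY Kdm6b-null and 2 XX Kdm6b-null libraries out of 8. The other 4 are 2 XY and 2 XX wild type libraries. Each library holds polyadenylated RNA from 2 pairs of gonads pooled from embryos that had been sexed and genotyped, and no group received a treatment. The strain, the promoter or design behind the null allele, and whether the pools came from separate litters are not recorded in the sources used here, so the p-values measure the spread between these pools. The comparison was restricted to autosomal genes, and 16097 of the 48440 genes in the tables were on an autosome and had a mean normalized count of at least 10 over the 4 null libraries. The question is which differences of the testis and ovary programs were present without Kdm6b. The labels name pre-Sertoli cells for XY and pre-granulosa cells for XX, but they give whole gonad as the tissue, so the values are read as those of whole gonads. A lower level in such a sample cannot tell fewer cells of a type from less RNA per cell.

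The gonad begins as a bipotential ridge that can form a testis or an ovary. In XY gonads the Y-linked transcription factor Sry switches on Sox9 in supporting cell precursors, which become Sertoli cells and shape the testis through signals such as Fgf9, Amh, Dhh and inhibins. In XX gonads Rspo1 and Wnt4 act through beta-catenin, and Foxl2 and Fst mark the granulosa cell path. Kdm6b is a demethylase that removes the repressive methyl marks from lysine 27 of histone H3, and Polycomb proteins place those marks. The day sampled lies early in sex determination, when Sry is on and the downstream programs are only starting to part.

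Among the testis genes, Cbln4 and Inhbb had the largest XY excess in wild type gonads and little of it in null gonads, so their promoters are shown here. Both are read 5' to 3' on the minus strand from RefSeq (build GRCm38.p6) and end at the base before the start of the gene. Capitals mark the letters AACAAT, the core that SRY and SOX proteins are known to bind, read on either strand. The Cbln4 stretch lies at chr2:172043467-172043716, and that of Inhbb at chr1:119422249-119422498.
Cbln4: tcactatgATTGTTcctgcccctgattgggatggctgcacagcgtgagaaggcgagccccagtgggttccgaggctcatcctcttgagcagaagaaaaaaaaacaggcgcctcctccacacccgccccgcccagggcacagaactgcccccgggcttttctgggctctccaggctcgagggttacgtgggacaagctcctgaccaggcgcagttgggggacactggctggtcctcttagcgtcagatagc
Inhbb: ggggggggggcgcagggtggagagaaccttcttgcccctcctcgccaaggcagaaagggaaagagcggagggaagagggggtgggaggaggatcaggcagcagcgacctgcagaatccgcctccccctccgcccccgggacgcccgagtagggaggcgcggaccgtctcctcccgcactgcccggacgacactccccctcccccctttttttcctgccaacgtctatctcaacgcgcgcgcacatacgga
The letter sets searched on both strands were AACAAT, the NR5A1 half-site AAGGTCA and the GATA motif AGATAA. None of the 3 overlaps another in these stretches. The Cbln4 promoter held AACAAT once, on the reverse strand, and neither other motif. The Inhbb promoter held none of them. Across 32851 RefSeq mouse promoters of 250 bases, 9.42% held AACAAT, 4.08% held AAGGTCA and 9.99% held AGATAA. These are matches of letters in a short window and carry no measurement of binding. G and C made up 60.8% of the Cbln4 stretch and 68.0% of the Inhbb stretch. The RefSeq table had an entry for 3 of the 6 genes looked for. The entry for Cyp26b1 held none of the 3 letter sets. It is not printed, because the bases after its listed start were not found near the beginning of an annotated transcript.

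The libraries held 19107103 to 19828638 reads assigned to genes. A gene listed at 0 held 0 reads in that library. An expected count of up to 3 reads, or 2.92 to 3.08 normalized counts, was allowed behind such a value, which covers counting error only. Between 4.77 and 6.14% of the reads came from the 10 genes with most reads. The XX wild type pair differed most within itself. Its median chi-square per gene between replicates was 4.06, while it was 1.27 for the XX null pair, 1.46 for the XY wild type pair and 2.51 for the XY null pair. Markers of liver and yolk sac, such as Afp, summed to 15680 normalized counts in XX wild type replicate 1, to 553 in XX wild type replicate 2 and to 43.1 to 257 in the other 6 libraries. The wild type differences below all use that pair. Values without 1 of its libraries are given for some gene lists only, and the wild type differences of single genes rest on both. The gonad soma markers Nr5a1, Gata4, Wt1 and Lhx9 were present in all 8 libraries, the lowest value being 315 for Nr5a1.

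The labels of sex were checked first. Xist, the transcript of the inactive X, read 38200 and 32980 in the XX null libraries and 24.4 and 24.6 in the XY null libraries. The Y-linked genes Ddx3y, Kdm5d, Uty and Eif2s3y were at 0 in both XX null libraries and between 722 and 1922 in the XY null libraries. Kdm6b read 1242 and 1117 in XX null, 1236 and 1032 in XY null, 2241 and 2816 in XX wild type, while XY wild type gonads had 3397 and 3184. All 4 null libraries were below all 4 wild type libraries, and the null sexes overlapped (log2 XY over XX -0.06 ± 0.11 SE, limma adjusted p = 1.00). Reads over the whole gene do not show which part of Kdm6b was removed. Sry itself read 57.3 and 73.8 in the XY wild type libraries and 19.5 and 6.2 in the XY null libraries, with 0 in all 4 XX libraries. The XY null gonads therefore held Sry reads below those of both XY wild type libraries, and the 2 null pools differed from each other. Sry is on the Y chromosome and was left out of the tests.

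Of the 16097 autosomal genes, 2 passed the test of XY against XX in null gonads (0.0124%; limma, Benjamini-Hochberg adjusted p under 0.05). Glo1 was higher in XY and Gm6166 was lower, 0.00621% of the genes each. At an unadjusted p under 0.05 there were 493 genes (3.06%), 267 higher (1.66%) and 226 lower (1.4%). None of the 288 genes on the 20 lists of gonad pathways, cell types and controls was among the 2. The wild type comparison passed 0 of 16467 genes (limma; smallest adjusted p = 0.28), with 1344 at an unadjusted p under 0.05 (8.16%; 5.02% higher in XY and 3.15% lower), and edgeR also passed 0, with 1428 at an unadjusted p under 0.05. The test of the difference between the 2 sex differences passed 0 of 16310 genes (limma; smallest adjusted p = 0.21), with 1305 at an unadjusted p under 0.05 (8%; 2.89% higher and 5.11% lower), and edgeR passed 0 there as well, with 1421. With 2 libraries against 2, an exact permutation test of a single gene cannot give a two-sided p below 0.333. Apart from Glo1 and Gm6166, none of the genes named below passed in null gonads with all 4 libraries in the fit.

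**Figure D1:**
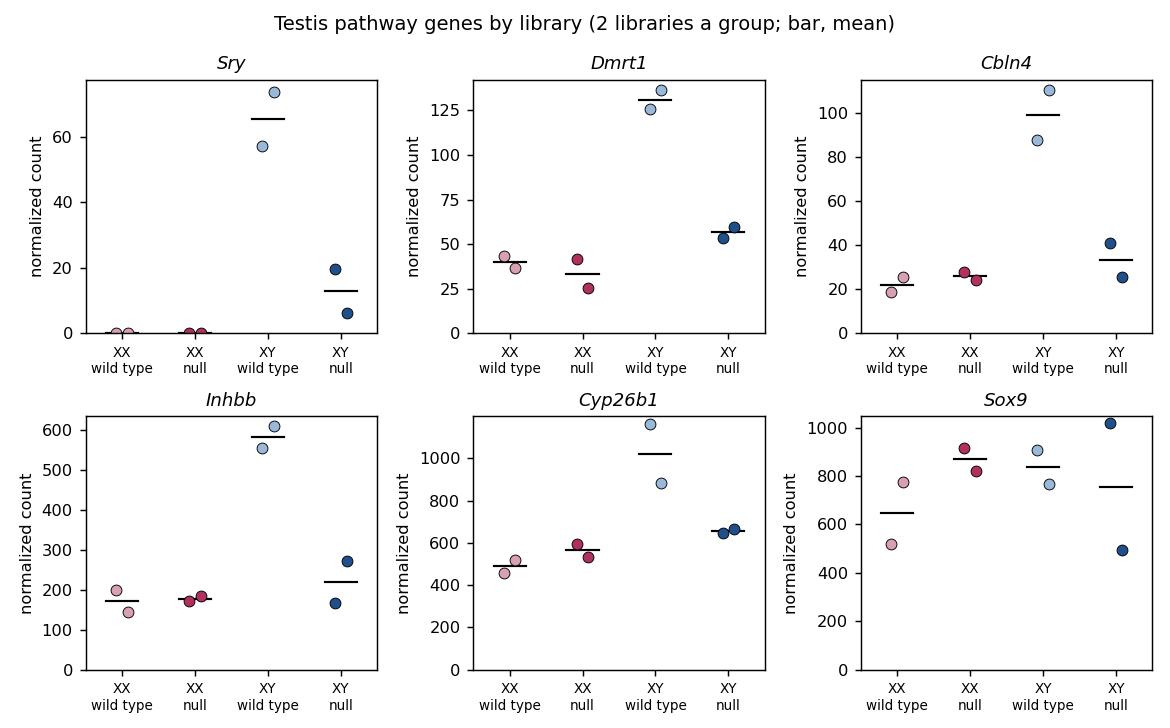
Normalized count (vertical axes, linear, starting at 0) of 6 genes of the testis path in the 2 libraries of each group; points are libraries and bars are group means. Cbln4, Inhbb, Dmrt1 and Cyp26b1 stand apart in the XY wild type libraries, at 88.0 and 111 for Cbln4, and the XY null libraries lie below them. For Cbln4 and Inhbb the XY null libraries lie in or above the XX range, and for Dmrt1 and Cyp26b1 above every XX library.

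Of the 26 genes of the testis path, 22 had a mean of at least 10 in the null libraries and 0 passed the test. Their XY over XX differences in null gonads ran from -0.83 to 0.79 on the log2 scale, with a median of 0.09, and 12 were above 0. The sign of that median was not stable, at -0.052 to 0.038 with 1 null library left out and -0.076 at a minimum mean of 50. Over all genes tested the median was -0.01 and 47.1% were above 0. Both XY null libraries lay above both XX null libraries for 3 of the 22 (14.1% of all genes tested), and both XX above both XY for 5 (16.6% of all). The wild type median was 0.25, and 15 of 23 were above 0. The difference between the null and the wild type sex difference was below 0 for 15 of the 22, with a median of -0.42.

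Dmrt1, a transcription factor that keeps the male fate of Sertoli cells, had the largest null difference of the list in the XY direction. It read 53.6 and 59.5 in XY null and 41.6 and 25.1 in XX null gonads, so the groups did not overlap. The difference was 0.79 ± 0.33 SE on the log2 scale (limma unadjusted p = 0.056, adjusted p = 1.00). The wild type libraries read 126 and 137 in XY and 43.1 and 36.7 in XX, a log2 difference of 1.69. The null sex difference was smaller than the wild type one by 0.91 (log2 difference of differences -0.91; limma unadjusted p = 0.056, adjusted p = 0.62).

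Cbln4, a secreted protein of the cerebellin family that is made by fetal Sertoli cells, read 40.9 and 25.6 in XY null and 27.7 and 24.1 in XX null gonads. The groups overlapped, and the XY null libraries differed from each other more than the sexes did on average (log2 difference 0.32 ± 0.35 SE). Its wild type levels were 88.0 and 111 in XY and 18.6 and 25.5 in XX, a log2 difference of 2.13 with no overlap. The null sex difference was lower than the wild type one by a log2 value of -1.81 (limma unadjusted p = 0.0049, adjusted p = 0.60). Inhbb encodes a subunit shared by inhibin B and activin B. It read 167 and 273 in XY null, 172 and 185 in XX null, 555 and 612 in XY wild type gonads and a mean of 172 ± 39.1 (SD, n = 2) in XX wild type gonads. Its log2 sex difference was 0.26 ± 0.25 SE in null and 1.77 in wild type gonads, and the change between them was -1.51 (limma unadjusted p = 0.0028, adjusted p = 0.60). Inhbb in XY null replicate 1 lay at the level of XX gonads and in replicate 2 above it, which makes the sign of its null difference depend on 1 library.

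Cyp26b1 breaks down retinoic acid, the signal that drives germ cells into meiosis. Its level was 649 and 668 in XY null and 597 and 536 in XX null gonads. These groups did not overlap, but the difference was small (log2 0.22 ± 0.10 SE, limma unadjusted p = 0.064). The wild type levels of Cyp26b1 were 1164 and 883 in XY against 460 and 520 in XX, a log2 difference of 1.05. The null difference was lower by -0.83 on the log2 scale (limma unadjusted p = 0.0038, adjusted p = 0.60). Cyp26b1 was added to the named genes after its values were seen.

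Sox9, the direct target of Sry and the central Sertoli factor, did not separate the sexes in either genotype. It read 1020 and 493 in XY null, 918 and 822 in XX null, 910 and 767 in XY wild type gonads and 521 and 774 in XX wild type gonads. Its log2 difference was -0.29 ± 0.32 SE in null and 0.40 in wild type gonads. The XY null pools lay on opposite sides of the XX null pools. With XY null replicate 1 left out, the log2 difference was -0.82. Without replicate 2 it was 0.23. Sox13, a relative of Sox9, read 1153 and 1321 in XY null against 1288 and 1362 in XX null gonads, and in wild type gonads 1147 and 1142 against 789 and 811. Its difference was -0.10 in null and 0.52 in wild type gonads.

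Signals from the early testis either overlapped between the null sexes or were higher in XX. Fgf9, which sustains Sox9, read 77.9 and 82.0 in XY null and 68.4 and 85.3 in XX null gonads. Fgf9 was lower in XY among wild type gonads, at 112 and 57.9 against 139 and 204. Amh, the Sertoli hormone that removes the female duct, read 15.6 and 10.3 in XY null and 14.9 and 9.0 in XX null gonads, and its level was no higher than 15.6 in any library. Dhh, the Sertoli signal to Leydig cells, read 59.4 and 45.1 in XY null and 70.4 and 82.2 in XX null gonads, so both XX libraries lay above both XY libraries (log2 -0.55 ± 0.25 SE, limma unadjusted p = 0.077). Sox8 and Vnn1 had the same order, at log2 differences of -0.40 and -0.34. Col9a3, a cartilage-type collagen chain found in the early testis, was the 1 of 22 measured list members with an unadjusted p under 0.05. Among all genes tested 3.06% had such a p, so this count is near the background. Col9a3 read 135 and 132 in XY null and 179 and 172 in XX null gonads (log2 -0.39 ± 0.15 SE, limma unadjusted p = 0.045).

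The 19 genes of the bipotential gonad and of the regulators of Sry lay upstream of the choice of sex. All 19 were measured in null gonads and 0 passed. Their null differences ran from -0.22 to 0.27 with a median of 0.05, and 12 were above 0. For 0 of the 19 were both XY null libraries above both XX null libraries (14.1% of all genes), and for 3 the XX libraries were above (Lhx9, Cbx2 and Map3k4; 16.6% of all genes, so this count is near the background). In wild type gonads 17 of 19 were above 0, and 12 had both XY libraries above both XX libraries (21.8% of all genes tested there). The wild type median was 0.26, or 0.48 without XX wild type replicate 2. Without XX wild type replicate 1 it was 0.22, with 14 of 19 above 0. The null difference was below the wild type one for 16 of 19, with a median change of -0.36 and 6 at an unadjusted p under 0.05 in the lower direction (5.11% of all genes).

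Nr5a1, the nuclear receptor needed to form gonads and to drive steroid genes, read 479 and 879 in XY null and 594 and 563 in XX null gonads. The XY null pools again straddled the XX pools (log2 0.17 ± 0.27 SE). Wild type XY gonads held 1113 and 1258 and wild type XX gonads 617 and 315, a log2 difference of 1.42 with no overlap. The change between genotypes was -1.26 (limma unadjusted p = 0.034, adjusted p = 0.62). Without XY null replicate 1 the null difference of Nr5a1 was 0.60, and without replicate 2 it was -0.27, so its sign depended on 1 library.

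Gata4, a zinc finger activator of Sry, read 1112 and 1593 in XY null and 1552 and 1559 in XX null gonads, a log2 difference of -0.22, against 0.76 in wild type gonads. Lhx9, a LIM homeodomain factor of the genital ridge, read 928 and 1082 in XY null and 1095 and 1159 in XX null gonads. Its difference was -0.17 in null and 0.78 in wild type gonads, where XY read 1698 and 2230 and XX 1395 and 925 (change -0.94; limma unadjusted p = 0.012). Gadd45g and Map3k4 belong to the kinase route that switches on Sry. Gadd45g read 325 and 309 in XY null against 313 and 222 in XX null gonads, and its log2 difference was 0.27 in null and 0.86 in wild type gonads. Map3k4 read 2023 and 2167 in XY null against 2226 and 2311 in XX null gonads, a log2 difference of -0.11, compared with 0.39 in wild type gonads (change -0.50; limma unadjusted p = 0.0051). Cited2, a cofactor that raises Nr5a1 in the ridge, had differences of 0.05 in null and 0.53 in wild type gonads (limma unadjusted p of the change 0.0080). Cbx2, the Polycomb protein whose loss causes male-to-female sex reversal, read 2913 and 2997 in XY null against 3347 and 3235 in XX null gonads.

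**Figure D2:**
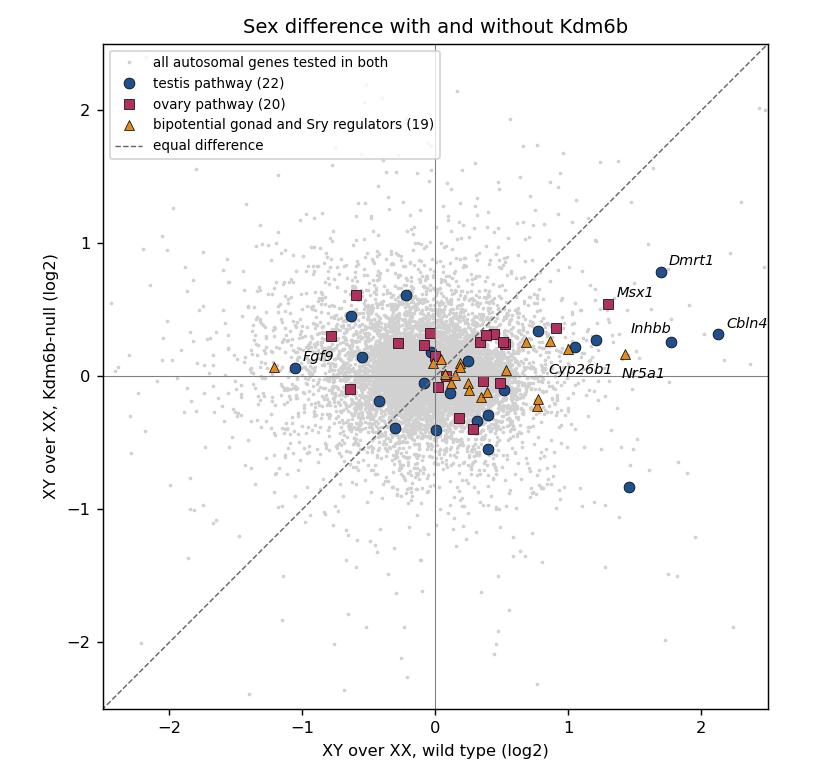
Log2 difference of XY over XX in Kdm6b-null gonads (vertical axis) against wild type gonads (horizontal axis) for autosomal genes tested in both, with the testis, ovary and bipotential lists marked; the dashed line is an equal difference. Dmrt1, Cbln4, Inhbb and Nr5a1 lie at 1.69, 2.13, 1.77 and 1.42 in wild type gonads and at 0.79, 0.32, 0.26 and 0.17 in null gonads; 48 genes fall outside the axes.

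Genes of the ovary path were not lower in XY than in XX null gonads as a list. Of 21 genes, 20 were measured and 0 passed. Their median log2 XY over XX was 0.25 in null and 0.23 in wild type gonads, so the list leaned to XY in both genotypes, with 14 of 20 and 13 of 20 above 0. The null median was 0.095 without XY null replicate 2 and 0.14 without XX null replicate 2, and the wild type median 0.13 without XX wild type replicate 2. Both XY null libraries exceeded both XX null libraries for 7 of 20 (14.1% of all genes), and the reverse held for 3 (Bmp2, Ctnnb1 and Fzd1; 16.6% of all genes).

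Wnt4, the ligand that opposes the testis path and is also made in the mesonephros, read 1423 and 3077 in XY null and 1422 and 1862 in XX null gonads. XY null replicate 2 stood far above the other 3 null libraries. Its log2 difference was 0.36 ± 0.35 SE in null and 0.91 in wild type gonads, where it read 2216 and 2525 in XY and 1425 and 1118 in XX. With XY null replicate 1 left out, the Wnt4 difference was 0.92, and with replicate 2 left out it was -0.19. Rspo1, the Wnt co-activator, read 429 and 742 in XY null and 591 and 390 in XX null gonads. Fst, an activin-binding protein of the early ovary, read 261 and 145 in XY null and 129 and 238 in XX null gonads. Neither separated the sexes in wild type gonads either, at log2 differences of -0.09 and 0.00. Foxl2, the granulosa factor, was at most 13.7 in any library and was too low to test, at 6.8 and 11.3 in XY null and 1.0 and 4.0 in XX null gonads.

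The 7 with no overlap and higher XY values were genes of Wnt signalling and the homeobox gene Msx1. Lef1, the nuclear partner of beta-catenin, read 510 and 593 in XY null against 448 and 469 in XX null gonads (log2 0.26 ± 0.11 SE, limma unadjusted p = 0.061). Znrf3, a ligase that removes Wnt receptors, read 641 and 747 against 512 and 608 (log2 0.31 ± 0.13 SE, limma unadjusted p = 0.054). Axin2, Sp5, Nkd1, Tnfrsf19 and Msx1 had the same order, with log2 differences of 0.32, 0.61, 0.24, 0.25 and 0.55. The XY libraries were thus higher for these 7, by values that did not pass. In wild type gonads Lef1, Znrf3, Nkd1 and Msx1 also had both XY libraries above both XX libraries, while Sp5 was the reverse.

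A further reading used genes chosen on the wild type libraries alone. These were the 50 autosomal genes in each direction with the smallest wild type p among those whose sexes did not overlap and whose higher group mean was at least 50. None had passed the wild type test, and choosing by the smallest p makes the wild type differences too large. Of the 50 genes higher in wild type XY, 37 were also higher in XY null and 13 were lower, but the median shrank from 0.95 to 0.13 on the log2 scale. For 10 the null libraries did not overlap in the same direction (14.1% of all genes), for 1 in the other, and 0 passed. Chrm4, a muscarinic acetylcholine receptor, was the 1 gene of the 50 whose null difference was at least 50% of the wild type difference. It read 145 and 107 in XY null and 99.1 and 24.1 in XX null gonads (log2 1.32 ± 0.64 SE, limma unadjusted p = 0.085). Gpr37, a G protein-coupled receptor, read 177 and 129 in XY null against 121 and 61.2 in XX null gonads, and 412 and 287 against 113 and 91.7 in wild type gonads. Its log2 difference was 0.81 in null and 1.75 in wild type gonads. The other genes of that list included Etnk2, an ethanolamine kinase, at 268 and 325 in XY null against 251 and 196 in XX null gonads, compared with 525 and 549 against 230 and 204 in wild type gonads. Chrm4, Gpr37 and Etnk2 were picked for mention after their values were seen.

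The count of the 50 genes that were also higher in XY null depended on which XY null pool was read. Without XY null replicate 2, 18 of the 50 were higher in XY null and the median was -0.07. Without XY null replicate 1, 45 of the 50 were higher and the median was 0.27. When the choice was repeated with 1 wild type library left out at a time, 12 to 34 of the chosen genes stayed in the list, and 11 to 36 of 49 or 50 measured were higher in XY null. The lowest figure, 11 of 50, came from leaving out XX wild type replicate 2.

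Of the 50 genes higher in wild type XX, 49 were measured in null gonads. Here 16 had the same direction and 33 the opposite, with a median of -1.44 in wild type and 0.09 in null gonads. When the choice was repeated with 1 wild type library left out at a time, 4 to 29 of the 50 genes stayed in the list, and without XY wild type replicate 1 the count turned, to 32 in the same and 17 in the opposite direction with a null median of -0.098. In 4 the null libraries did not overlap in the same direction (16.6% of all genes) and in 12 in the opposite direction (14.1%). The gene that passed, Glo1, was in the opposite direction. Several of these 50 were genes of red blood cells, among them Hbb-bt, Hbb-y, Hba-a1 and Kel. Erythroid markers as a list were lower in wild type XY for 12 of 12, with a median of -1.22, and had a null median of -0.04. The null median was -0.68 without XY null replicate 2 and 0.69 without XY null replicate 1, with 1 and 11 of 12 above 0. The wild type median was -0.76 without XX wild type replicate 2. Their summed level was 61937 and 105589 in XY wild type, 196790 and 253061 in XX wild type, 71797 and 214465 in XY null, and 122874 and 115716 in XX null gonads, and their part in this result was not tested.

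**Figure D3:**
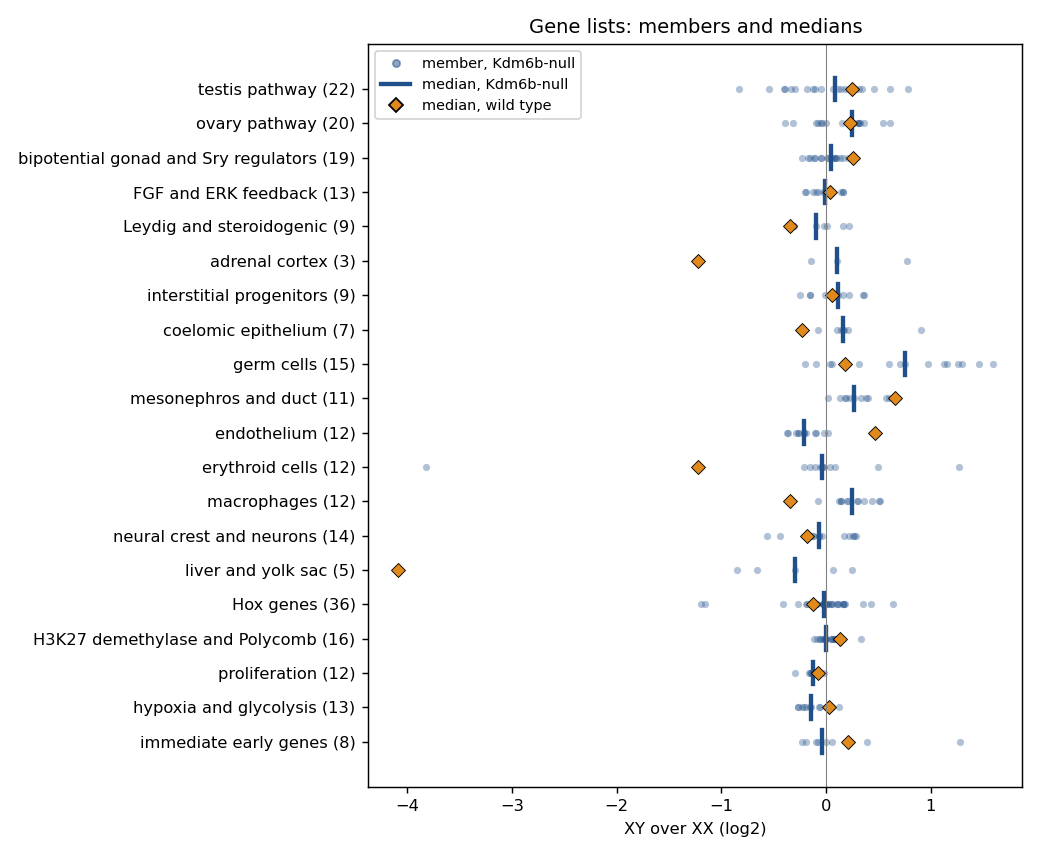
Log2 difference of XY over XX (horizontal axis) for each gene list (vertical axis, measured members in null gonads in brackets); pale points are list members in Kdm6b-null gonads, bars their medians, diamonds the wild type medians. Germ cell genes have the highest null median, 0.75, and endothelial genes a median of -0.21 in null against 0.47 in wild type gonads.

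Glo1, which encodes glyoxalase 1, an enzyme that clears the sugar by-product methylglyoxal, rose in XY against XX null gonads. It read 4141 and 3782 in XY null and 1345 and 1421 in XX null gonads, a log2 difference of 1.52 ± 0.08 SE or 2.86-fold (limma adjusted p = 0.033). In wild type gonads the order was the opposite, at 1486 and 1997 in XY and 3233 and 4727 in XX (log2 -1.18). The change between genotypes was 2.699 (limma adjusted p = 0.21). Glo1 was thus high in XY null and XX wild type gonads and low in the other groups. The call was lost with no filter on low values (limma adjusted p = 0.29), in 1 fit of all 8 libraries (0.50), without the variance trend (0.71), and without XX null replicate 1 (0.15) or 2 (0.23), while the log2 difference stayed between 1.45 and 1.58 with 1 library left out.

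Glo1 lies at chr17:30592866-30612659 in GRCm38, between Btbd9 (chr17:30215524-30576287) and Dnah8 (chr17:30624354-30875264). Dnah8, an axonemal dynein chain, read 238 and 150 in XY null, 39.6 and 40.1 in XX null, 39.5 and 80.8 in XY wild type gonads and 149 and 169 in XX wild type gonads. Its null difference was 2.21 ± 0.27 SE (limma adjusted p = 0.56). Btbd9 read 1715 and 1652 in XY null and 1191 and 1150 in XX null gonads (log2 0.52 ± 0.07 SE, limma adjusted p = 0.60). In both neighbours the XY null libraries lay above the XX null libraries and the mean of XX wild type above that of XY wild type, as for Glo1. A difference in DNA copy number of this stretch between the pools was not tested.

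Gm6166, a processed pseudogene at chr9:57483913-57484585, fell in XY against XX null gonads. It read 8.8 and 10.3 in XY null and 215 and 188 in XX null gonads, a log2 difference of -4.27 ± 0.26 SE (limma adjusted p = 0.039). In wild type gonads it was low in every library, at 5.0 to 11.2, so XX null gonads were the 1 group with high reads. Pseudogenes share sequence with their parent gene, so the counting could have split reads between them. Its call was lost at a minimum mean of 50 (limma adjusted p = 0.086), with no filter (0.29), without the variance trend (0.21), and without XX null replicate 1 (0.34) or 2 (0.36). Gm6166 was named after its values were seen, as 1 of the 2 genes that passed.

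Below the threshold, the genes with the smallest p and higher values in XY null gonads, besides those near Glo1, had mixed roles. Ctse, the stomach and immune protease cathepsin E, read 88.7 and 187 in XY null and 11.9 and 3.0 in XX null gonads, but also 219 and 16.3 in XX wild type gonads. Its null difference was 4.17 ± 0.65 SE (limma adjusted p = 0.89). Trim12a read 227 and 198 in XY null and 72.3 and 81.2 in XX null gonads, and was at 0 in replicate 1 of both wild type groups and at 88.6 and 99.8 in replicate 2, so its wild type values split by replicate number and not by sex. Serpinb6b, a protease inhibitor, read 353 and 317 against 184 and 164 (log2 0.94). Tenm2, a teneurin adhesion protein, read 258 and 278 against 146 and 137 (log2 0.92). Muc16, a mucin of mesothelium, read 347 and 393 against 213 and 216 (log2 0.78). Upk1b, a uroplakin of the mesothelium, read 203 and 186 against 123 and 86.3 (log2 0.91). It was the 1 of 7 measured coelomic epithelium genes with an unadjusted p under 0.05 (3.06% of all genes tested).

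On the XX side the genes with the smallest p were also varied. Rpl29, a ribosomal protein, read 3450 and 4501 in XY null and 7819 and 8005 in XX null gonads (log2 -1.01; limma adjusted p = 0.60), but 8665 and 462 in the XY wild type pair. Many processed copies of ribosomal protein genes exist, and reads may be split among them. Actc1, cardiac actin, read 842 and 548 against 1387 and 1783 (log2 -1.21). The replication-dependent histone genes Hist1h2ag and Hist1h3c read 33.1 and 26.7 against 75.3 and 71.2, and 63.3 and 52.3 against 144 and 111. Histone genes of this kind lack poly(A) tails for the most part, and their family members are near copies, so these values are uncertain. Zfp40, Dera, Hebp1, Alad, Dscam and Mir17hg had differences of -0.65, -0.62, -0.48, -0.36, -0.83 and -0.54, with no overlap between the sexes. Dscam, a neuronal adhesion molecule, read 97.4 and 95.3 in XY null and 168 and 177 in XX null gonads, and 46.5 and 89.8 against 37.3 and 28.5 in wild type gonads.

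The changes of the sex difference between genotypes with the smallest p came with both signs. Penk, the enkephalin precursor, read 29.2 and 25.6 in XY null, 21.8 and 26.1 in XX null, 29.7 and 17.96 in XY wild type gonads and 226 and 248 in XX wild type gonads. It was therefore high in XX wild type gonads, and its wild type log2 difference of -3.30 compared with 0.19 in null gonads (change 3.49; limma unadjusted p = 4.5e-05, adjusted p = 0.24). Hs6st1, a heparan sulfate sulfotransferase that modifies growth factor signalling, read 1832 and 1993 in XY null, 1825 and 1909 in XX null, 2443 and 2662 in XY wild type gonads and 1337 and 1359 in XX wild type gonads. Its wild type difference of 0.92 compared with 0.03 in null gonads (change -0.89; limma adjusted p = 0.24). Lgr4, a receptor for R-spondins, had the same form. It read 3409 and 3557 in XY null and 3635 and 3548 in XX null gonads, against 3560 and 4016 in XY and 1892 and 2136 in XX wild type gonads. For Hs6st1 the null sexes met between the wild type sexes, and for Lgr4 the null values lay with the XY wild type values. Cxxc5, Plvap and Pnlip followed with changes of -0.81, -1.04 and -2.62. On the other side, Hbb-bt, Dnah8 and Rps18 had changes of 4.44, 3.69 and 1.87.

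**Figure D4:**
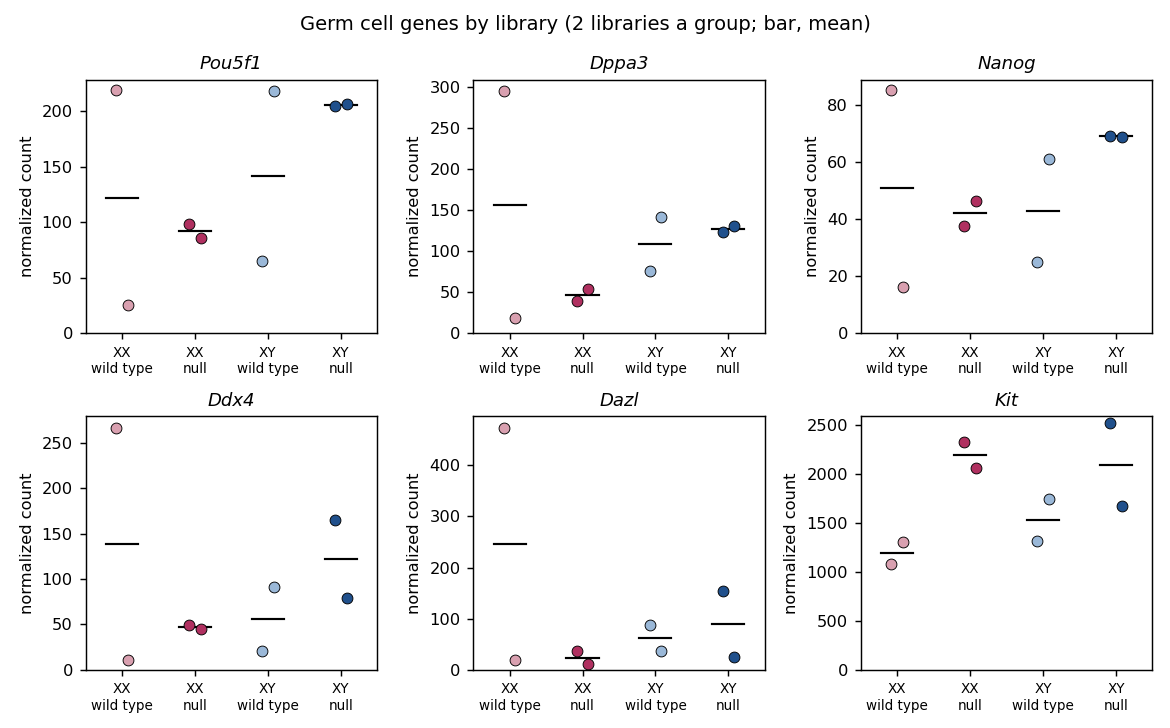
Normalized count (vertical axes, linear, starting at 0) of 6 germ cell genes in the 2 libraries of each group; points are libraries and bars are group means. For Pou5f1 the XY null libraries lie at 205 and 206 and the XX null libraries at 98.1 and 85.3, while the wild type replicates differ widely within a sex.

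Germ cell genes had the highest median of any list in null gonads, 0.75 on the log2 scale over 15 measured genes, with 13 above 0. For 9 of 15 both XY null libraries lay above both XX null libraries (14.1% of all genes), and 8 had an unadjusted p under 0.05 in that direction (1.66% of all genes), though 0 passed. Pou5f1, the pluripotency factor kept in primordial germ cells, read 205 and 206 in XY null and 98.1 and 85.3 in XX null gonads (log2 1.16 ± 0.17 SE, limma adjusted p = 0.77). Dppa3 read 124 and 130 against 38.6 and 53.2 (log2 1.46 ± 0.24 SE, limma adjusted p = 0.93), and Nanog 69.2 and 68.7 against 37.7 and 46.1 (log2 0.71). Dppa5a, Tfap2c, Prdm14 and Dnd1 had differences of 1.13, 1.30, 0.98 and 0.75. L1td1, which is expressed in pluripotent cells and is on no list here, read 134 and 152 in XY null and 62.4 and 64.2 in XX null gonads (log2 1.16).

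The later germ cell genes Ddx4 and Dazl were also higher in XY on average, at log2 1.26 and 1.59, but Dazl read 154 and 25.6 in XY null and 36.7 and 11.03 in XX null gonads and overlapped. Kit, which marks germ cells but also other cells, did not separate the sexes, at 2519 and 1671 in XY null and 2334 and 2065 in XX null gonads. Among wild type gonads, germ cell genes differed widely between the replicates of a sex. Pou5f1 read 219 and 25.5 in the XX wild type pair and 65.3 and 219 in the XY wild type pair, and the wild type median of the list was 0.18. That median was 0.73 without XX wild type replicate 1, -0.57 without XX wild type replicate 2, and 0.55 or -0.20 when replicate 1 or 2 of XY wild type was left out, so it has no settled sign. The summed level of the 15 genes was 5158 and 3787 in XY null and 4081 and 3618 in XX null gonads, so the sums, led by Kit, overlapped. The median of the list in null gonads was 0.66 to 0.87 when 1 null library was left out.

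Endothelial genes had opposite orders in the genotypes. In null gonads 11 of 12 were below 0, with a median of -0.21, and for 8 both XX null libraries lay above both XY null libraries (16.6% of all genes). In wild type gonads 12 of 12 were above 0, with a median of 0.47, or 0.30 without XY wild type replicate 2. The difference between genotypes was below 0 for 12 of 12, with a median of -0.63 and 9 at an unadjusted p under 0.05 (5.11% of all genes in that direction), though 0 passed. Cdh5, the cadherin of endothelial junctions, read 3208 and 2794 in XY null, 3882 and 3836 in XX null, 2869 and 4260 in XY wild type gonads and 2019 and 2504 in XX wild type gonads (null log2 -0.37 ± 0.09 SE, change -1.003, limma adjusted p = 0.60). Tek, the angiopoietin receptor, read 995 and 871 in XY null and 1174 and 1243 in XX null gonads (log2 -0.38). Plvap, a protein of vessel pores, read 1655 and 1709 against 1969 and 2075 (log2 -0.27). The summed level of the 12 genes was 18478 and 17100 in XY null, 20453 and 20159 in XX null, 17724 and 23479 in XY wild type gonads and 13854 and 15353 in XX wild type gonads.

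Macrophage genes leaned to XY in null gonads, with 11 of 12 above 0 and a median of 0.25, and to XX in wild type gonads, with a median of -0.34. Without XX wild type replicate 1 the wild type median was -0.069 with 5 of 12 above 0, and without XX wild type replicate 2 it was -0.58. Without XY null replicate 2 the null median was 0.13 and 9 of 12 were above 0, and without XX null replicate 1 it was 0.38. For 7 of 12 both XY null libraries were above both XX null libraries (14.1% of all genes). Csf1r, the receptor that macrophages need to survive, read 815 and 806 in XY null and 687 and 523 in XX null gonads (log2 0.44 ± 0.14 SE, limma adjusted p = 1.00). Mrc1, the mannose receptor, read 636 and 604 against 523 and 482 (log2 0.30).

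Mesonephros and duct genes, which mark the tissue attached to the gonad, were above 0 for 11 of 11 in null gonads with a median of 0.27, and the wild type median was 0.66. The null median was 0.086 with 8 of 11 above 0 without XY null replicate 2, 0.42 without XY null replicate 1 and 0.40 without XX null replicate 2. The wild type median was 1.01 without XX wild type replicate 1. Cdh16, a kidney cadherin, read 670 and 981 in XY null and 508 and 562 in XX null gonads (log2 0.60 ± 0.19 SE). Epcam, an epithelial adhesion protein, read 687 and 741 against 575 and 612 (log2 0.27). The summed level was 4839 and 6115 in XY null and 4658 and 4299 in XX null gonads, with XY null replicate 2 the highest of the 4. Wnt4, Sox9 and Nr5a1 also differed between the XY null replicates, and the part of attached mesonephros in those values was not tested.

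The Hox and Polycomb lists had medians near 0. The 36 measured Hox genes, position genes that Polycomb represses, had a null median of -0.02, and the 16 genes of the H3K27 demethylases and Polycomb a null median of 0.00. Cbx7 and Ezh2 were at 0.34 and -0.11 in the latter. The 12 proliferation genes were all below 0 in null gonads, between -0.30 and -0.01 with a median of -0.12, and for 7 of 12 both XX null libraries lay above both XY null libraries (16.6% of all genes). Without XY null replicate 1 their median was -0.051 with 3 of 12 above 0. It was -0.18 with 1 above 0 without XY null replicate 2, and -0.10 with 2 above 0 without XX null replicate 1. Plk1 read 1749 and 2022 in XY null against 2358 and 2265 in XX null gonads. The medians were -0.01 for FGF and ERK feedback genes, -0.09 for Leydig and steroidogenic genes, 0.11 for adrenal cortex genes, 0.12 for interstitial progenitors, 0.16 for coelomic epithelium, -0.06 for neural crest and neurons, -0.30 for the 5 measured genes of liver and yolk sac, -0.14 for hypoxia and glycolysis and -0.04 for immediate early genes. Leaving out XY null replicate 2 turned the coelomic median to -0.19, that of liver and yolk sac to 0.96 and that of FGF and ERK feedback to 0.13. Without XY null replicate 1 the medians were -1.66 for liver and yolk sac, 0.068 for Leydig and steroidogenic genes and 0.030 for hypoxia and glycolysis. Without XX null replicate 1 they were -0.25 for adrenal cortex and 0.16 for neural crest and neurons. Without XX null replicate 2 they were -0.018 for interstitial progenitors and 0.021 for immediate early genes. The sign of these medians is therefore not settled. Maf, a factor of interstitial progenitors and macrophages, read 1468 and 1280 in XY null against 1089 and 1040 in XX null gonads (log2 0.37). Fos, an immediate early gene, read 59.4 and 50.2 in XY null against 29.7 and 16.0 in XX null gonads (log2 1.28).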

How the data were processed

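Polyadenylated RNA of 8 gonad pools was read as paired reads of 100 bases, per the labels' protocols. The tools named in the submitters' processing notes are DESeq2 2.11.40.8, featureCounts 2.0.8, STAR 2.7.11 and cutadapt 4.9, with GRCm38 (mm10). Whether the counting used strand is not stated there. As signal, the deposited tables hold a count per gene that the authors divided by 1 size factor per library, with XX and XY normalized separately in 2 tables. The authors' deposited log2 tables served here only for gene names and coordinates.

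The tables were joined by gene ID (48440 genes, 44220 autosomal), and each column was rescaled by 1 median-ratio factor over 16870 genes. limma 3.58.1 in R 4.3.3 was fitted on log2(normalized count + 1), a scale that understates changes of low genes, with a variance trend, for genes with mean at least 10, with Benjamini-Hochberg adjustment at 0.05, and was tested on simulated data. A ± SE comes from that fit. Each sex difference had its own fit of 4 libraries (2 residual degrees of freedom); the difference between them used all 8 (4 residual). In each library 100% of nonzero values were whole multiples of 1 step (tolerance 1e-06 of a step), read as 1 read. The design allowed edgeR if those reads passed a screen of units; 3 of 8 columns passed, so edgeR 4.0.16 was run as an alternative chosen after seeing the data.

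The members and lists were chosen with earlier results of these data known. Named genes were a set of sex determination genes, up to 2 per list with the smallest p, and the 10 per direction with the largest or most significant difference. The 5 per direction for the change of the sex difference were named as well, and predicted genes were passed over. Some others are said to be added. Further list members given with values, such as Sox13, Dhh, Map3k4, Cited2 and Nanog, lay outside this rule and were mentioned with their values known. Alternatives were TMM scaling, scaling within a comparison, pseudocount 5, minimum mean 50, no filter, 1 fit of 8 libraries, no variance trend, a replicate block and leaving out each library.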

Additional observations from a re-analysis of the deposited data

How the results depend on the processing

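With 2 pools per group, precision is limited by the number of pools, and the XX wild type pair stands apart. Whether a replicate number marks a shared litter or day is not recorded. Same-numbered null libraries deviated together with a correlation of 0.17 and wild type ones with 0.0089, over 2 numbers. The 2 calls in null gonads became 1 at a minimum mean of 50 (Glo1), 0 with no filter, 1 in a fit of all 8 libraries (Gm6166), 0 without the variance trend and 4 with the replicate block. Both remained under TMM scaling, scaling within the comparison, pseudocount 5 and, chosen after seeing the data, edgeR. Leaving out 1 library gave 0 to 194 calls. The 194, 67 higher and 127 lower, came without XY null replicate 1, where the lone XY library is assumed to vary like the XX pair, and 17 came without XY null replicate 2. The wild type comparison had 2 calls in a fit of all 8 libraries (Hs6st1 and Penk) and 0 to 8 with a library left out, 8 of them without XX wild type replicate 1. The difference between genotypes had 0 to 27, the 27 without XX wild type replicate 2.

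The testis median in null gonads was -0.076 at a minimum mean of 50 and -0.052 to 0.038 with 1 library left out, so its sign is not settled. The ovary median was 0.10 to 0.32. The median of genes higher in wild type XY was -0.073 to 0.27 in null gonads, and of those higher in wild type XX 0.054 to 0.31. Among 80 named genes, 711 of 711 values under settings that keep all libraries had the main direction and 705 the main side of the threshold. With 1 library left out, the log2 null difference turned for 18 genes. It ran from -0.22 to 0.45 for Amh, -0.012 to 0.64 for Cbln4, -0.13 to 0.052 for Cxxc5, -0.057 to 0.84 for Egr1, -0.092 to 0.22 for Fgf9, -0.29 to 0.59 for Fst, -0.48 to 0.035 for Gata4, -0.62 to 0.013 for Gli1, -0.027 to 0.095 for Hs6st1, -0.10 to 0.61 for Inhbb, -0.19 to 0.070 for Kdm6b, -0.51 to 0.23 for Mc2r, -0.27 to 0.60 for Nr5a1, -1.13 to 0.41 for Rbp4, -0.16 to 0.63 for Rspo1, -0.82 to 0.23 for Sox9, -0.70 to 0.10 for Trf and -0.19 to 0.92 for Wnt4. The cause was not tested.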
